A study of Mus musculus with 12 samples.

Results

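The antioxidant and glutathione defence genes are 37 genes of the superoxide, peroxide, thioredoxin and glutathione systems, chosen by name. All 37 were found among the 23997 rows of a deposited table of FPKM (fragments scaled to transcript length and to library size). All 37 also passed the filter on low values, 1 FPKM or more in 3 or more libraries, as did 11196 genes in all, and none was listed at 0 in any library. The RNA came from cumulus cells, somatic cells around the oocyte that belong to the granulosa lineage. The 12 libraries came from female C57BL/6J mice, either ClpP-/- (KO) or wild type (WT), aged 3 or 6 months, with 3 libraries in each of the 4 groups. ClpP is the proteolytic subunit of a protease of the mitochondrial matrix. Mice of both genotypes were primed with pregnant mare serum gonadotropin (5 IU), a hormone that drives follicles to grow, and cells were taken after 44 h according to the treatment protocol or 48 h according to the series description. Each library holds 100 cumulus cells of a single mouse, amplified with Smart-Seq2. The sources used here do not say how the ClpP-/- allele was made.

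Superoxide made by the respiratory chain and by oxidases is converted to hydrogen peroxide by superoxide dismutases, and the peroxide is removed by catalase, peroxiredoxins and glutathione peroxidases. Peroxiredoxins are returned to their reduced form by thioredoxin and thioredoxin reductase, and glutathione peroxidases draw on glutathione, which glutathione reductase regenerates with NADPH. The transcription factor NRF2, encoded by Nfe2l2 and held in check by KEAP1, binds antioxidant response elements and raises many of these genes under oxidative or electrophilic stress. Cumulus cells are known to support the glutathione content of the oocyte.

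The core of the antioxidant response element, TGACNNNGC, was searched on both strands of the 250 bases upstream of each start in the RefSeq promoter table (GRCm38.p6), which holds 30 of the 37 genes. It was found upstream of 5 of these 30, Gclm, Nfe2l2, Prdx1, Sod1 and Txnrd1 (16.7%), and upstream of 11.5% of the 27025 genes in the table. The stretches are shown because they are the members that hold the core, among them the regulator itself and its known targets Gclm, Prdx1 and Txnrd1. They are written 5′ to 3′ on the strand of the gene, with the core in capitals. In Gclm, Prdx1, Sod1 and Txnrd1 the core reads on the opposite strand, so the capitals show its reverse complement. The Prdx1 core also holds the AP-1 motif TGACTCA. Of the 30 genes 6 have several starts in the promoter table. The Txnrd1 stretch lies inside the annotated gene (82833951 to 82897712), upstream of a later start. A match describes the letters and is not a bound site.
Gclm, chr3:122245403-122245451, plus strand: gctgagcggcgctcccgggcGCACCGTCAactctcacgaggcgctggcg
Nfe2l2, chr2:75704875-75704913, minus strand: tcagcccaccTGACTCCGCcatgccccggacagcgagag
Prdx1, chr4:116685446-116685494, plus strand: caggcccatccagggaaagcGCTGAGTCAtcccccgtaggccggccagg
Sod1, chr16:90220686-90220734, plus strand: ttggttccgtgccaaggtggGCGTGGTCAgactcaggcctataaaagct
Txnrd1, chr10:82859094-82859142, plus strand: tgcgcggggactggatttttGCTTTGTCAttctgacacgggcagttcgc

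The libraries were uneven in depth and in cell content. Relative depth, read from the spacing of low FPKM values, was 0.64 to 1.0 of the deepest library, and 9335 to 10861 genes per library reached 1 FPKM. The targeted gene Clpp averaged 3.27 ± 2.95 FPKM (± SD, n = 3) in KO against 121 ± 29.9 in WT at 3 months, then 2.91 ± 2.98 against 122 ± 7.59 at 6 months. Granulosa and cumulus markers were present throughout, 7 or 8 of 8 at 1 FPKM or more, with Inha at 2419 to 6334 FPKM. Their sum ran from 2775 FPKM in 3-month KO library 3 to 6781 in 3-month KO library 2, with 3789 in 6-month KO library 3. Library 3 of both KO groups had the highest sums of theca and stromal markers and of oocyte markers. The 8 theca and stromal markers summed to 1140 FPKM there at 3 months (6 of 8 at 1 FPKM or more) and to 1382 at 6 months (7 of 8), the remaining 10 libraries holding 0.389 to 142. Library 3 of both WT groups came next, at 142 at 3 months and 90.4 at 6 months, with at most 36.2 elsewhere. The 9 blood and leukocyte markers summed to 763 and 1000 FPKM in the same pair, to 1519 in 6-month WT library 3, to 745 in 3-month WT library 3, and to at most 42 elsewhere. These sums rested on different markers. In the same order of libraries the haemoglobin gene Hbb-b1 stood at 378.5, 14, 745 and 448.5 FPKM, and the leukocyte gene Lyz2 at 64.2, 397, 151 and 4.72. The 8 oocyte markers summed to 40.9 and 189 in the pair (7 and 5 of 8 at 1 FPKM or more) and to at most 9.3 elsewhere. The 6-month sum was mainly H1foo (124) and Oosp1 (43.1). In that library Zp1 was at 0, and Gdf9 and Zp2, at 1.48 and 0.111, lay below their 2.43 and 2.76 in 6-month WT library 3. Surface epithelium markers (5) followed another order, with 52.9 FPKM in 6-month WT library 1, 51.2 in 6-month WT library 3, 12.7 and 23.8 in the pair and at most 1.45 elsewhere, and the 5 endothelial markers summed to 4.18 to 24.3. The pair also had the largest FPKM sums, 1010583 and 1366495, the other 10 lying between 627194 and 883858. Small RNA genes took 32% and 37.5% of the FPKM sum in the pair, 25.7% in 3-month WT library 1 and at most 6.82% elsewhere. In bulk RNA of this kind fewer cells of a type and less RNA per cell cannot be told apart.

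The 37 genes spanned a wide range of levels. Group values below are FPKM in the order of libraries 1, 2 and 3, and means carry the SD over 3 libraries. By mean FPKM over the 12 libraries 17 of the 37 were among the top 1000 rows of the table. Prdx1, a cytosolic peroxiredoxin, led with a mean of 2852, rank 21 of all rows. It stood at 2049.6, 4895, 2991 FPKM across 3-month WT, 2138, 2309.7, 3241 across 3-month KO, 2015, 1707, 3849 across 6-month WT and 1884, 2108, 5041 across 6-month KO. Its values overlapped between all groups. Prdx2, another cytosolic peroxiredoxin, stood at 807, 1426, 1425 FPKM across 3-month WT, 776, 957, 1392 across 3-month KO, 1054, 1141, 1727 across 6-month WT and 1054, 1182, 1658 across 6-month KO, again with overlap throughout. The 6 peroxiredoxins together held 43.1% to 52.9% of the summed FPKM of the 37 genes in each library, and the 4 genes of glutathione synthesis and recycling held 0.406% to 1.83%.

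Gpx4, the glutathione peroxidase that reduces lipid peroxides in membranes, stood at 1182, 1438, 1330.4 FPKM across 3-month WT, 914, 1091, 961 across 3-month KO, 1145, 1464, 1695 across 6-month WT and 1304, 1347, 1268 across 6-month KO. Thioredoxin, Txn1, stood at 766, 1325, 896 FPKM across 3-month WT, 724, 627, 614 across 3-month KO, 691, 675, 1179 across 6-month WT and 619.8, 824, 1021 across 6-month KO. In both genes 3-month KO had the lowest mean of the 4 groups. Gpx1, a mostly cytosolic glutathione peroxidase, stood at 482, 940.0, 592 FPKM across 3-month WT, 492, 629, 705 across 3-month KO, 519, 548, 750.5 across 6-month WT and 558, 489, 1205 across 6-month KO. Gstp1, a pi-class glutathione transferase, stood at 329.7, 598, 442 FPKM across 3-month WT, 404, 315, 505 across 3-month KO, 404, 341, 477 across 6-month WT and 316, 397, 673 across 6-month KO. Neither separated the groups. Prdx4, the peroxiredoxin of the endoplasmic reticulum, stood at 710.0, 885, 695 FPKM across 3-month WT, 462, 724, 285 across 3-month KO, 468, 509, 867 across 6-month WT and 654, 629, 263 across 6-month KO, lowest in library 3 of both KO groups. Gstm1, a mu-class transferase also among the 8 highest, is given with those libraries below. Txn1, Prdx1, Gpx4, Gstm1 and Gstp1 have near-identical copies or processed pseudogenes, and how reads were shared among them is not given, so their levels are uncertain. At the low end Osgin1, Nqo1 and Keap1 averaged 2.98, 5.11 and 6.11 FPKM.

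Members also differed in how far libraries of a group spread. The pooled SD within groups on the log2(FPKM + 1) scale had a median of 0.505 over the 37 genes and 0.5 over all tested genes. Gpx4 (0.174), Hmox2, the constitutive heme oxygenase (0.191), Glrx3, a monothiol glutaredoxin (0.209), and Txn2, the mitochondrial thioredoxin (0.238), lay in the lowest 5% of tested genes. Hmox2 ranged 1.56-fold, from 54.9 to 85.9 FPKM, over the 12 libraries. At the other end 8 of the 37 lay in the top 10%. They were Sod3, the extracellular superoxide dismutase, Srxn1, the sulfiredoxin that repairs overoxidised peroxiredoxins, the transferases Gstm1 and Gsta4, the secreted peroxidase Gpx3, the quinone reductase Nqo1, Osgin1, and Gpx8 of the endoplasmic reticulum. The SD of Sod3 was 2.16 and that of Srxn1 was 1.99, with 259.6-fold and 211-fold between the lowest and highest library.

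**Figure D1:**
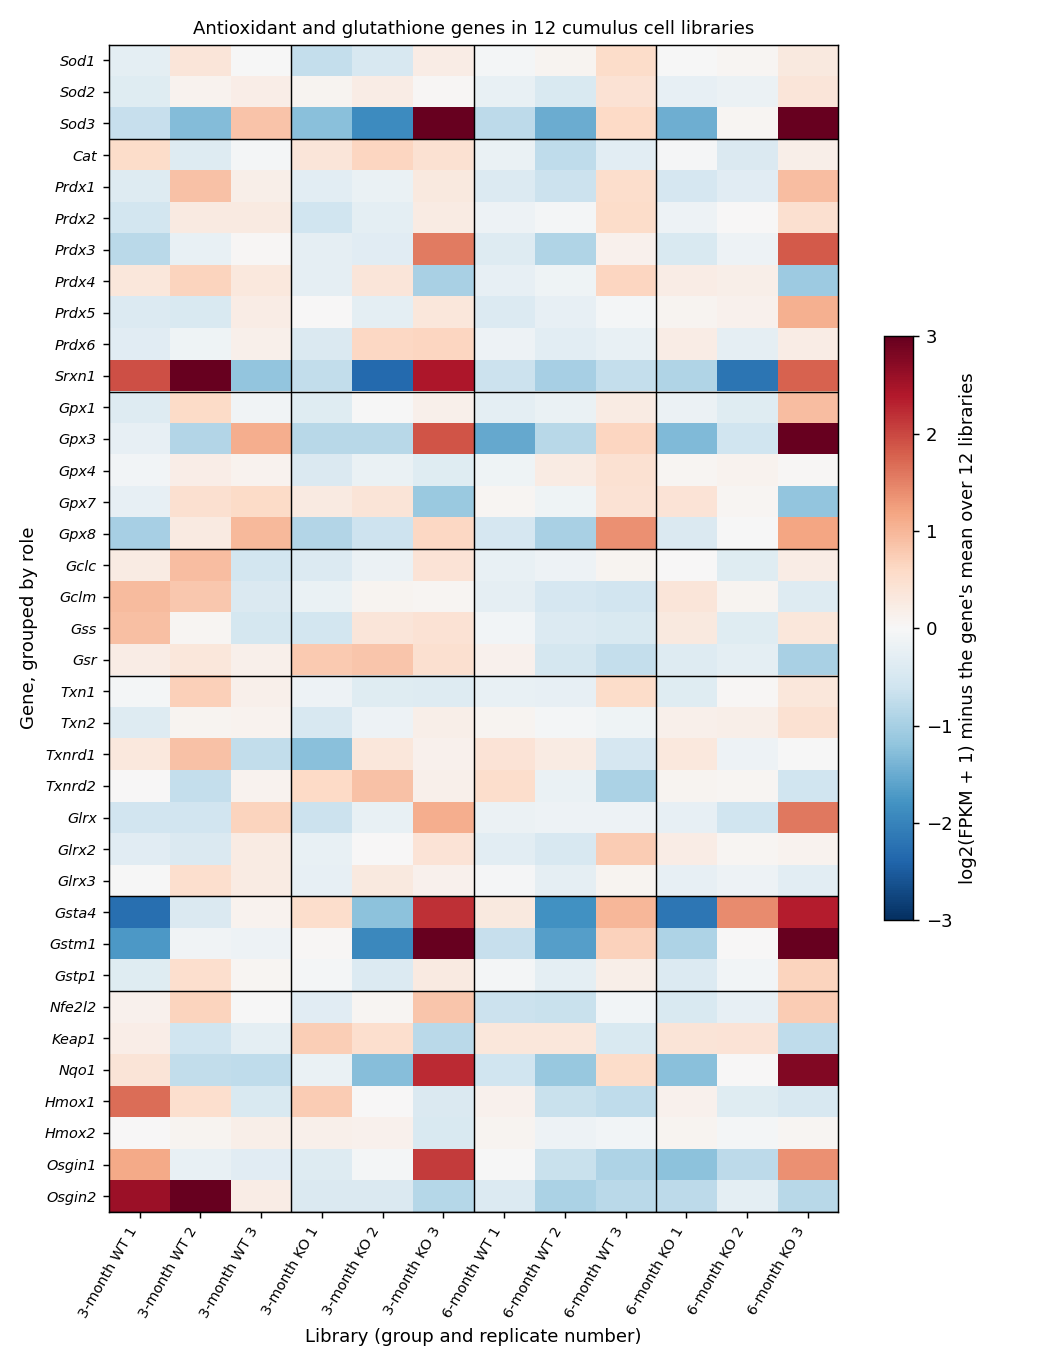
Heat map of log2(FPKM + 1) minus each gene's mean over the 12 libraries (colour, log2 units, colours ending at -3 and 3) for the 37 genes (rows, lines separating the roles) in the 12 libraries (columns, lines separating the groups of 3). Sod3, Gpx3, Gstm1, Gsta4 and Nqo1 are deep red in library 3 of both KO groups, and Osgin2 is deep red in 3-month WT libraries 1 and 2.

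Whether loss of ClpP goes with altered antioxidant transcripts in young animals is addressed by the 3-month groups. No member differed at an adjusted p under 0.05 in limma (0 of 37, where 0.00893% of all tested genes did). At an unadjusted p under 0.05 there was 1 member, Osgin2, where 6.8% of all tested genes passed. The median log2 difference of the 37 genes, KO minus WT, was -0.093 with 16 of 37 above 0, beside a median of 0.012 over all tested genes. With libraries scaled without small RNA the members' median was 0.047 with 20 above 0, beside 0.12 over all tested genes. For 12 of 37 members the 95% interval of the difference lay within 2-fold in both directions, beside 27.6% of all tested genes. Groups did not overlap for 5 members, where 10.2% of all tested genes did not. KO was the higher group for 2, Gsr and Txnrd2 (5.02% of all tested genes), and the lower for 3, Gpx4, Txn1 and Osgin2 (5.22%). The share of members was near the background.

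Osgin2, a member of the oxidative stress-induced growth inhibitor family (chromosome 4, 15997121 to 16013888, minus strand, GRCm38), had the 3-month difference of greatest size among the 37. It stood at 140.0, 192, 26.8 FPKM across 3-month WT, 16.6, 16.8, 12.3 across 3-month KO, 17, 11.5, 12.6 across 6-month WT and 12.8, 18.4, 12.4 across 6-month KO. WT libraries 1 and 2 at 3 months were far above every other library, WT library 3 was the next highest, and the other 9 lay between 11.5 and 18.4 FPKM. The 3-month difference was -2.50 (SE 0.57, 95% interval -3.74 to -1.27, limma adjusted p = 0.628), and the 6-month difference was 0.073 (SE 0.57, 95% interval -1.16 to 1.31, limma adjusted p = 1). The interaction of genotype and age, the 6-month minus the 3-month difference, was 2.57 (SE 0.80, limma adjusted p = 1). Without 3-month WT library 3 the 3-month difference was -3.36 (limma adjusted p = 0.00249) and the interaction 3.43 (adjusted p = 0.0173). Over all alternatives the adjusted p at 3 months ran from 0.00249 to 1, and the gene was called without that library, alone or together with library 3 of the other 3 groups (-3.22, adjusted p = 0.0164), and under no other setting. Tnfaip6, a gene of the expanding cumulus matrix named after its values were seen, gave 45.9, 44.9, 8.36 FPKM in the 3-month WT libraries and at most 7.24 in the other 9. Has2, which makes the hyaluronan of that matrix, gave 23.1, 2.06, 2.08, high in WT library 1 but not in WT library 2, where Osgin2 was highest, and at most 1.22 in the other 9. The part of cumulus expansion in the Osgin2 values was not tested.

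Srxn1 was uneven as well, at 25.8, 83.1, 2.08 FPKM across 3-month WT, 3.18, 0.394, 36.9 across 3-month KO, 3.48, 2.51, 3.24 across 6-month WT and 2.72, 0.532, 23 across 6-month KO. It was high in 3-month WT libraries 1 and 2 and in library 3 of both KO groups, and the genotypes overlapped at each age. Its 3-month difference was -1.66 (SE 1.36, limma adjusted p = 0.829). For the paralogue Osgin1 at 3 months the WT libraries gave 5.69, 1.63, 1.42 FPKM, the KO libraries 1.35, 1.94, 12.1, with the highest value in KO library 3 and the next in WT library 1.

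Thioredoxin system genes pointed in different directions at 3 months, 3 of 7 above 0, and none passed the test. Every Txn1 value in KO lay below every WT value, with a difference of -0.57 (SE 0.29, 95% interval -1.21 to 0.07, limma adjusted p = 0.762) and an interaction with age of 0.54 (SE 0.41, limma adjusted p = 1). For Txnrd2, the thioredoxin reductase of mitochondria (chromosome 16, 18426384 to 18479073, plus strand), the WT libraries gave 12.7, 7.34, 13.7 FPKM, the KO libraries 19.7, 24, 14.2. Here every KO value lay above every WT value, with a difference of 0.74 (SE 0.41, 95% interval -0.14 to 1.62, limma adjusted p = 0.768). Txn2 averaged 145 ± 32.9 against 154 ± 28.1 FPKM (KO against WT) and the cytosolic reductase Txnrd1 23 ± 11.5 against 31 ± 16.3. The glutaredoxins, which use glutathione to reduce disulfides, averaged 35.5 ± 24.2 against 28.7 ± 16.2 for Glrx, 12.1 ± 2.95 against 10.2 ± 3.08 for the mitochondrial Glrx2 and 138 ± 26.1 against 158 ± 27.1 for Glrx3. All of these overlapped between genotypes.

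Among the glutathione genes, Gpx4 in KO lay below all WT values at 3 months, with a difference of -0.41 (SE 0.20, 95% interval -0.85 to 0.027, limma adjusted p = 0.747). For glutathione reductase, Gsr, the WT libraries gave 35.8, 39.2, 34 FPKM, the KO libraries 53.1, 55.1, 43, so that every KO value was above every WT value, with a difference of 0.46 (SE 0.29, limma adjusted p = 0.79). Of the 5 glutathione peroxidase genes 4 lay below 0, with a median of -0.38, and none passed the test. Gpx7 and Gpx8, both of the endoplasmic reticulum, averaged 291 ± 136 against 367 ± 104 and 63.2 ± 38.6 against 85 ± 51 FPKM (KO against WT). The subunits of glutamate-cysteine ligase, the rate-limiting enzyme of glutathione synthesis, averaged 14.8 ± 4.8 against 19.1 ± 9.64 (Gclc, catalytic) and 41.4 ± 4.28 against 62.2 ± 27.4 (Gclm, modifier). Glutathione synthetase, Gss, averaged 11.7 ± 4.22 against 12.7 ± 6.83. These 5 overlapped between genotypes.

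The superoxide dismutases, catalase, the peroxiredoxins and Srxn1 all overlapped between genotypes at 3 months. Sod1 (cytosolic) averaged 277 ± 98.1 against 346 ± 79.3 FPKM in KO against WT, and Sod2 (mitochondrial) 56.3 ± 3.71 against 52.2 ± 10.2. The 95% interval of the Sod2 difference, -0.50 to 0.75, lay within 2-fold. Catalase, Cat, averaged 57.1 ± 6.07 against 42.8 ± 14.7, and Prdx6, the peroxiredoxin that works with a single cysteine, 241 ± 87.6 against 176 ± 30. The heme oxygenases averaged 50.2 ± 22.1 against 78.7 ± 57 for the inducible Hmox1 and 73.9 ± 16.5 against 80.8 ± 4.88 for Hmox2.

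At 6 months the same comparison called no member either (limma, 0 of 37, where 0.0268% of all tested genes were called), and no member had an unadjusted p under 0.05 (1.22% of all tested genes did). The median log2 difference was 0.20 with 27 of 37 above 0, beside 0.014 over all tested genes, and without 6-month KO library 3 it was 0.032. The interval lay within 2-fold for 16 members (43.2%), beside 34.5% of all tested genes. KO values lay above all WT values for 2 members, Prdx5 and Txn2, and below for none, where 3.79% and 3.01% of all tested genes did so. For Prdx5, a peroxiredoxin of mitochondria and peroxisomes (chromosome 19, 6906697 to 6910106, minus strand), the WT libraries gave 93, 104, 119 FPKM, the KO libraries 129.9, 135, 261. KO library 3 was the highest of the 6. The difference was 0.66 (SE 0.32, 95% interval -0.027 to 1.35, limma adjusted p = 1), and 0.34 without that library. For Txn2 the WT libraries gave 168, 153, 146 FPKM, the KO libraries 176, 180.3, 219, a difference of 0.30 (SE 0.24, limma adjusted p = 1).

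For all other members the 6-month values overlapped between genotypes when read by group. Same-numbered libraries were also read as pairs, though the labels do not pair them. By correlation of deviations from the group means, only libraries 3 matched each other best in both directions. Within same-numbered pairs KO was above WT in all 3 for 8 members, Cat, Prdx5, Prdx6, Gpx3, Gss, Gclm, Txn2 and Nfe2l2 (13.7% of all tested genes). It was below in all 3 for none (10.4%). With the replicate number as a block none of the 37 was called, and the adjusted p of Prdx5, Gclm and Nfe2l2 was 1 in limma. For Gclm the WT libraries gave 34.7, 29.4, 27.6 FPKM, the KO libraries 54.3, 44.5, 31.6, with a difference of 0.47 (SE 0.35, 95% interval -0.30 to 1.24, limma adjusted p = 1). For Nfe2l2 the WT libraries gave 38.3, 37.8, 56.7 FPKM, the KO libraries 43.5, 50.5, 104, with a difference of 0.48 (SE 0.39, limma adjusted p = 1), or 0.11 without KO library 3. KO libraries 1 and 2 lay inside the WT range of Nfe2l2. Sod1 and Sod2 averaged 362 ± 41.5 against 389 ± 91.6 and 52.3 ± 12.9 against 51.1 ± 17.2 FPKM (KO against WT), Cat 38.2 ± 8.2 against 30.1 ± 5.87 and Prdx6 199 ± 37.8 against 160.3 ± 9.43. Gpx7 and Gpx8 averaged 274 ± 134 against 323 ± 64.8 and 93.1 ± 58.2 against 88.4 ± 81, Gclc 14.8 ± 3.23 against 14 ± 1.74 and Gss 11.4 ± 3.09 against 8.25 ± 1.37. Txnrd1 and Txnrd2 averaged 26.3 ± 4.61 against 27 ± 8.49 and 11.5 ± 3.09 against 11.9 ± 6.36. The glutaredoxins were at 44.5 ± 39.5 against 26.2 ± 0.175 (Glrx), 12.4 ± 0.738 against 12.2 ± 6.66 (Glrx2) and 111 ± 5.61 against 125 ± 14.9 (Glrx3). Both heme oxygenases lay close between genotypes, Hmox1 at 37.4 ± 8.98 against 33.4 ± 12.5 and Hmox2 at 77.2 ± 4.31 against 73.7 ± 6.37.

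Of the genes that act in mitochondria, where ClpP works, 6 were read as a group, Sod2, Prdx3, Prdx5, Txn2, Txnrd2 and Glrx2. At 3 months 5 of the 6 lay above 0 in KO with a median of 0.24, and at 6 months 6 of 6 with a median of 0.22, beside medians of 0.012 and 0.014 over all tested genes. None of the 6 passed the test at either age. Both medians of the 6 stayed above 0 under the 2 other scalings. Gpx4, Gpx1 and Gsr, whose products also act partly in mitochondria, were not in the group. Their differences were -0.41, -0.10 and 0.46 at 3 months and -0.12, 0.21 and -0.18 at 6 months. Without library 3 of all 4 groups, an alternative chosen after the data were seen, 5 of 6 lay above 0 at each age, with medians of 0.28 and 0.25. At 3 months the median was 0.071 when KO library 3 alone was left out. Prdx3, the main peroxiredoxin of the mitochondrial matrix (chromosome 19, 60864051 to 60874556, minus strand), stood at 134, 202, 238 FPKM across 3-month WT, 193, 185, 698 across 3-month KO, 179, 125, 255 across 6-month WT and 171, 210.1, 836 across 6-month KO. Library 3 of each KO group was far above the others, while KO libraries 1 and 2 at both ages lay within the WT range. The Prdx3 difference at 6 months was 0.80 (SE 0.62, limma adjusted p = 1), and 0.086 without KO library 3.

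KO against WT at 3 and at 6 months rest on separate libraries. Of the 37 members 14 lay above 0 at both ages, 8 below at both and 15 in opposite directions. The share in the same direction, 59.5%, was near that of all tested genes, 60.9%. Averaged over both ages 21 of 37 lay above 0, or 25 with libraries scaled without small RNA. No member was called in that average (limma, 0 of 37, where 0.0179% of all tested genes were), and 1, Osgin2, had an unadjusted p under 0.05 (5.96% of tested genes), at -1.21 (SE 0.40, limma adjusted p = 0.783). Prdx5, Cat and Gpx4 followed with 0.45 (SE 0.22, limma adjusted p = 0.783), 0.39 (SE 0.21, limma adjusted p = 0.783) and -0.27 (SE 0.14, limma adjusted p = 0.783). The interaction of genotype and age called no member (0 of 37 in limma, where 0.00893% of all tested genes were called), and Osgin2 alone had an unadjusted p under 0.05 (2% of tested genes). Next by unadjusted p were Gclm, with an interaction of 0.94 (SE 0.50, limma adjusted p = 1), and Gsr, with -0.63 (SE 0.41, limma adjusted p = 1).

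**Figure D2:**
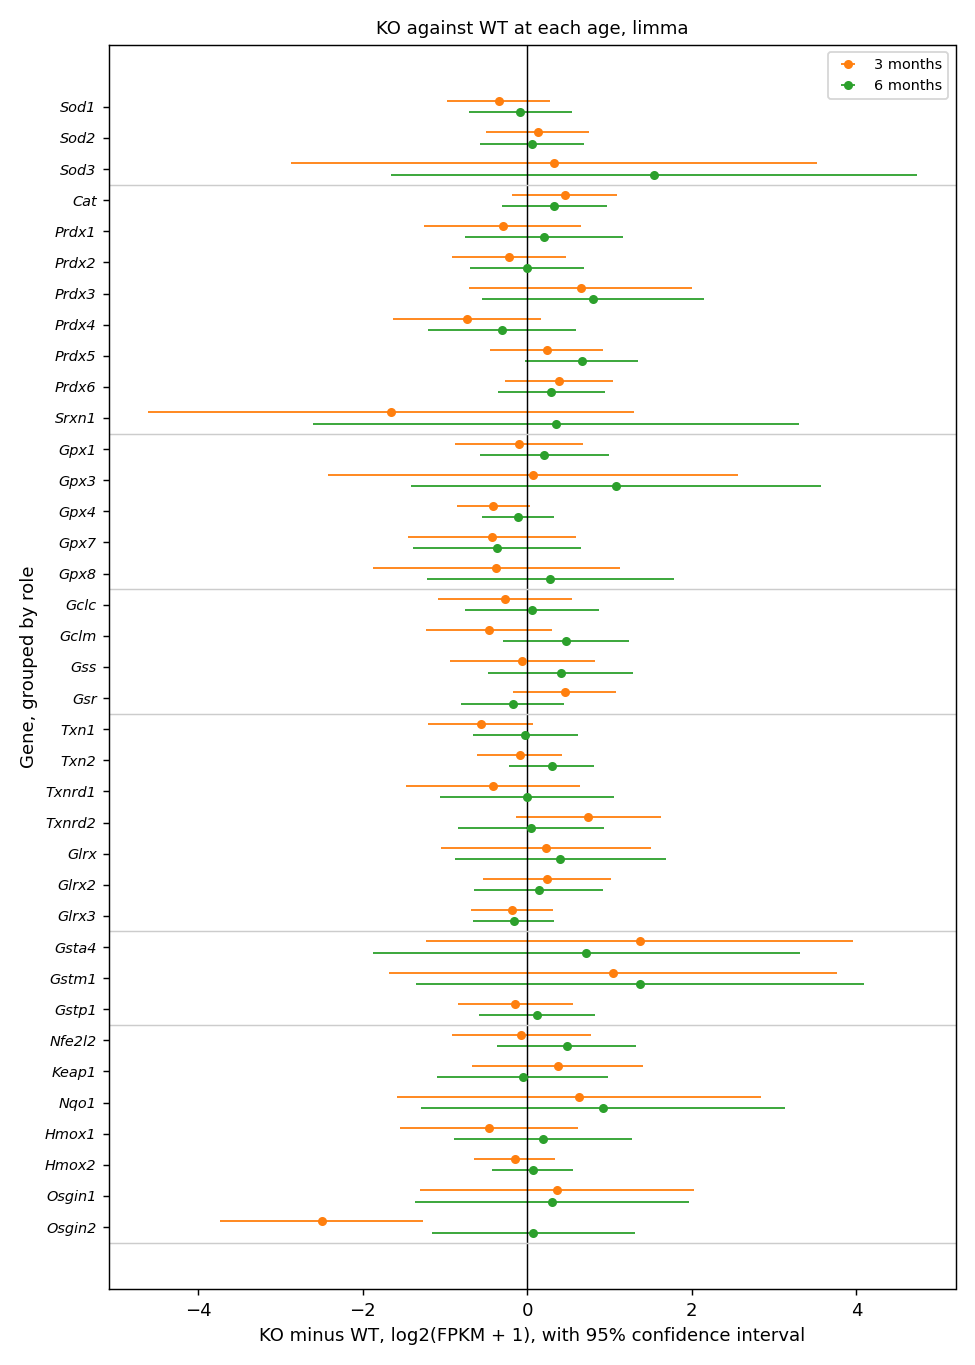
KO minus WT differences of log2(FPKM + 1) (horizontal axis) for the 37 genes (vertical axis, lines separating the roles) at 3 months (orange) and 6 months (green), with points for the limma estimate and lines for its 95% interval. Osgin2 at 3 months (-2.50) is the estimate whose interval excludes 0, and the intervals of Sod3, Srxn1, Gpx3, Gsta4 and Gstm1 are the widest.

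Age was compared within each genotype. In WT, 6 against 3 months called no member (limma, 0 of 37, where 0.00893% of all tested genes were called), and 2 members, Osgin2 and Gclm, had an unadjusted p under 0.05, where 7.44% of tested genes did. The median was -0.13 with 28 of 37 below 0, beside a median of 0.027 over all tested genes. With libraries scaled without small RNA it was -0.035 with 23 of 37 below 0, beside 0.10 over all tested genes. Osgin2 differed by -2.65 (SE 0.57, limma adjusted p = 0.664), against the same 3-month WT libraries as in the genotype comparison, and without 3-month WT library 3 by -3.51 with an adjusted p of 0.00108. Gclm (chromosome 3, 122245557 to 122270732, plus strand) gave 81.5, 74.4, 30.9 FPKM at 3 months, then 34.7, 29.4, 27.6 at 6 months, a difference of -0.89 (SE 0.35, limma adjusted p = 0.664). Hmox1 gave 142, 62.2, 31.6 FPKM, then 47.8, 27.1, 25.2, a difference of -1.01 (SE 0.50, limma adjusted p = 0.672). For Osgin2, Gclm and Hmox1 alike, 3-month WT libraries 1 and 2 were the highest of the 6 WT libraries, and for Gclm and Hmox1 library 3 lay inside the 6-month range.

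The 6-month WT values lay below all 3-month WT values for 3 members, Osgin2, Gsr and Nfe2l2, and above for none, where 7.81% and 7.94% of all tested genes did so. Nfe2l2 itself (chromosome 2, 75675513 to 75704641, minus strand) gave 66.2, 97, 59.9 FPKM at 3 months in WT, then 38.3, 37.8, 56.7 at 6 months, a difference of -0.73 (SE 0.39, limma adjusted p = 0.689). In KO it gave 47.6, 63.5, 108, then 43.5, 50.5, 104, highest in library 3 at each age. Keap1 averaged 4.85 ± 1.62, 7.12 ± 3.83, 6.26 ± 2.1, 6.22 ± 2.82 FPKM over 3-month WT, 3-month KO, 6-month WT and 6-month KO in that order. The NRF2 targets were read as a group of 12, Nqo1, Hmox1, Srxn1, Gclc, Gclm, Txnrd1, Gsr, Prdx1, Osgin1, Gsta4, Gstm1 and Gstp1. With age in WT 10 of the 12 lay below 0, with a median of -0.35, beside 28 of all 37 members with a median of -0.13. Gclm alone of the 12 had an unadjusted p under 0.05. Of 15 further NRF2 partners and targets outside the 37, 10 lay below 0, with a median of -0.093. For KO against WT the median of the 12 was -0.21 at 3 months and 0.25 at 6 months, with 5 and 10 above 0. Without library 3 of all 4 groups these were -0.62 with 2 above 0 and 0.057 with 7 above 0. The 4 genes of glutathione synthesis and recycling, Gsr, Gss, Gclc and Gclm, all lay below 0 with age in WT, with a median of -0.54, also under the 2 other scalings. For Gss and Gclc, however, 3-month WT library 3 lay below every 6-month WT value, at 7 against 7.29 to 9.82 FPKM and 10 against 12.6 to 16. For Gclm it lay inside the 6-month range. With age in KO 3 of the 4 genes lay above 0, with a median of 0.009.

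In KO, 6 against 3 months called no member (limma, 0 of 37, where 0.0179% of all tested genes were called). Gsr alone had an unadjusted p under 0.05, where 6.48% of tested genes did. The median was 0.06 with 24 of 37 above 0, or -0.008 with 18 above 0 when libraries were scaled without small RNA. Gsr (chromosome 8, 33652523 to 33698163, plus strand) gave 53.1, 55.1, 43 FPKM in KO at 3 months, then 23.3, 24.8, 15 at 6 months, a difference of -1.24 (SE 0.29, 95% interval -1.87 to -0.62, limma adjusted p = 0.696). In WT it gave 35.8, 39.2, 34, then 33.4, 21, 18.3, a difference of -0.61 (SE 0.29, limma adjusted p = 0.664). All 6-month values lay below all 3-month values, in both genotypes. The KO difference ran from -1.37 to -1.03 over its alternatives, with adjusted p from 0.287 to 0.978.

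The KO groups of the 2 ages did not overlap for 4 members, where 12.8% of all tested genes did not. Gpx4 was higher at 6 months (6.82% of all tested genes), and Cat, Gsr and Txnrd2 were lower (5.98%). Cat (chromosome 2, 103453849 to 103485160, minus strand) gave 51.7, 63.7, 55.9 FPKM in KO at 3 months, then 39.5, 29.4, 45.6, a difference of -0.59 (SE 0.29, limma adjusted p = 0.745), and in WT 59.1, 30.6, 38.6, then 34.8, 23.5, 31.9, with overlap. Gpx4 in KO differed by 0.41 (SE 0.20, limma adjusted p = 0.745). Txn2 in KO gave 113, 143, 179 FPKM, then 176, 180.3, 219, a difference of 0.42 (SE 0.24, limma adjusted p = 0.754), with overlap. Within same-numbered pairs, which the labels do not give, 6 members were higher at 6 months in all 3 pairs and 6 lower, where 17.8% and 17.4% of all tested genes were. Here too only libraries 3 matched each other best in both directions by correlation. The 3-month KO libraries serve in both the genotype and the age comparison of these genes.

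**Figure D3:**
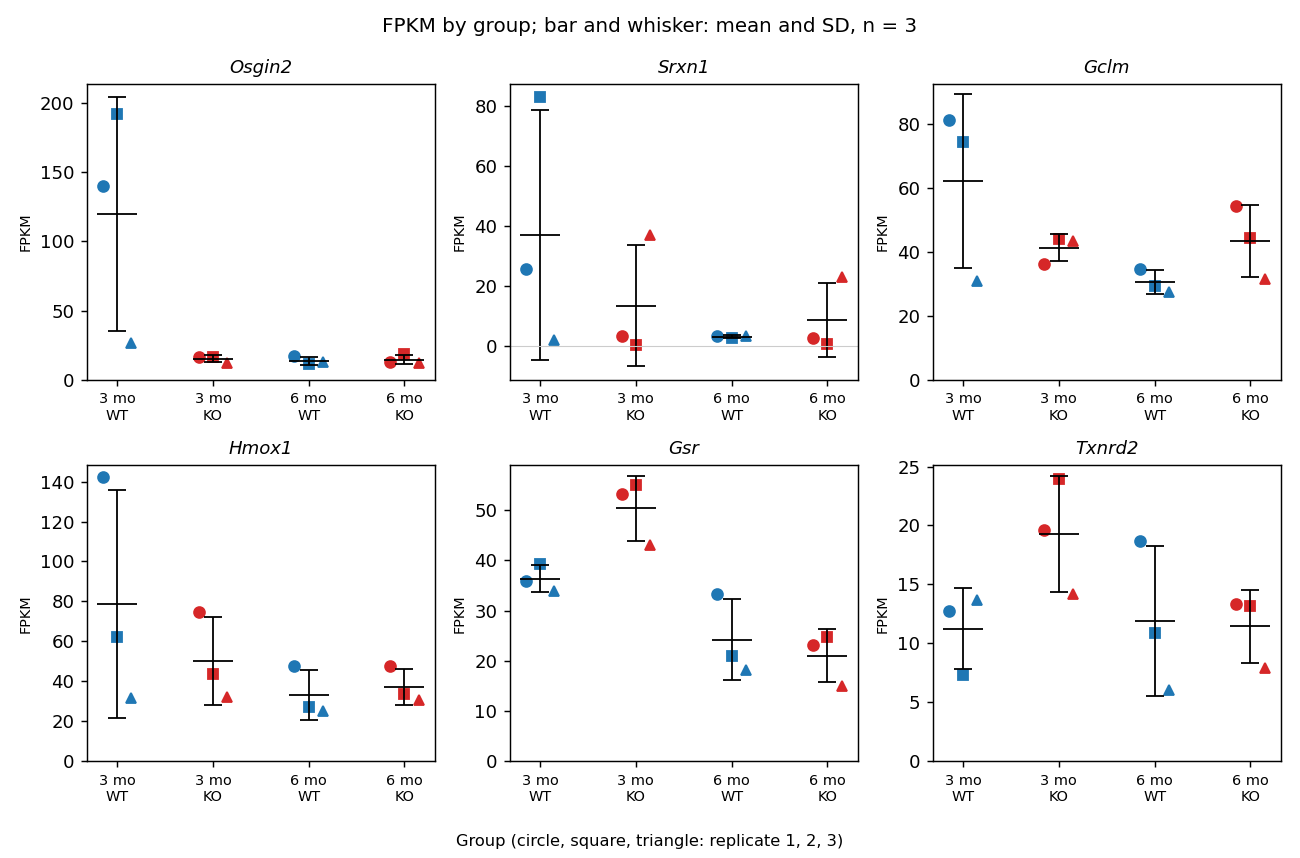
FPKM (vertical axis) of Osgin2, Srxn1, Gclm, Hmox1, Gsr and Txnrd2 by group (horizontal axis, WT blue and KO red), where symbols mark the replicate number, a bar marks each mean and a whisker its SD (n = 3). Osgin2 reaches 140.0 and 192 FPKM in the first pair of 3-month WT libraries and no more than 26.8 elsewhere, and all Gsr values at 6 months lie below all those at 3 months.

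Several members took their extreme values in library 3 of both KO groups, the pair with most theca and stromal marker transcripts, the largest FPKM sums and the largest shares of small RNA. Of the 37 members 10 were higher in both of these libraries than in any of the other 10, and 3 were lower, beside 10.2% higher and 7.73% lower of all tested genes. The 10 were Sod3, Prdx3, Prdx5, Gpx3, Glrx, Nqo1, Nfe2l2, Gsta4, Gstm1 and Osgin1, and the 3 were Prdx4, Gpx7 and Keap1. The pair was chosen after the values were seen and was not tested against the rest.

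Gstm1 (chromosome 3, 108012255 to 108017973, minus strand) stood at 91.5, 279, 269.6 FPKM across 3-month WT, 310.1, 78.1, 2471 across 3-month KO, 188, 95.8, 492 across 6-month WT and 159, 303, 3196 across 6-month KO. KO libraries 1 and 2 lay close to or inside the WT range, and library 3 was several-fold above it at both ages. The KO minus WT difference was 1.04 (SE 1.25, limma adjusted p = 0.873) at 3 months and 1.37 (SE 1.25, limma adjusted p = 1) at 6 months. Gpx3 stood at 454 FPKM in the 3-month library of the pair and 1352 in the 6-month library, beside 41.5 to 263 elsewhere. Gsta4, an alpha-class transferase that conjugates the lipid peroxidation product hydroxynonenal, stood at 429 and 482, beside 18.5 to 251. Nqo1 stood at 16.8 and 25, beside 0.575 to 4.56. All 3 had their highest values in these libraries. Sod3 stood at 41.1 and 109, beside 0.42 to 8.47, and Glrx at 63.2 and 90, beside 18.4 to 47.4. In the other direction Prdx4 and Gpx7, both of the endoplasmic reticulum, stood at 285 and 135 FPKM in the 3-month library and at 263 and 128 in the 6-month library, beside 462 to 885 and 247 to 440 elsewhere.

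Some genes of steroid-producing cells were highest in the same pair and others were not. The theca enzyme gene Cyp17a1 stood at 932 and 1062 FPKM in the pair, beside 0.197 to 119, and Cyp11a1, which starts steroid synthesis, at 5942 and 7989, beside 2.46 to 724. Hsd3b1, another steroidogenic enzyme gene, stood at 2562 and 5393 in the pair but also at 2217 in 3-month WT library 3 and 2822 in 6-month WT library 3. The luteinising hormone receptor gene Lhcgr stood at 97.2 and 206, with 151 in 6-month WT library 3. Of the granulosa markers, Inha was at 2590.0 and 3480.0 in the same pair and Foxl2 at 8.11 and 11, both inside the range of the other libraries. Inhba was at 11 and 136, beside 44.6 to 1122 elsewhere, so its 3-month value was the lowest of all 12 libraries. Fshr was at 36.3 and 30.7, beside 58.65 to 210.7 elsewhere. The part of RNA from other ovarian cells, or of the small RNA share, in the KO means of these 13 members was not tested. Without library 3 of both KO groups and of 6-month WT, chosen after the data were seen, no member was called in any of the 6 comparisons by limma, and the members' median was -0.29 at 3 months and 0.12 at 6 months. Without library 3 of all 4 groups, which also leaves out 3-month WT library 3, Osgin2 was called at 3 months and for age in WT, no other member was called in any comparison, and the medians were -0.31 and 0.12.

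**Figure D4:**
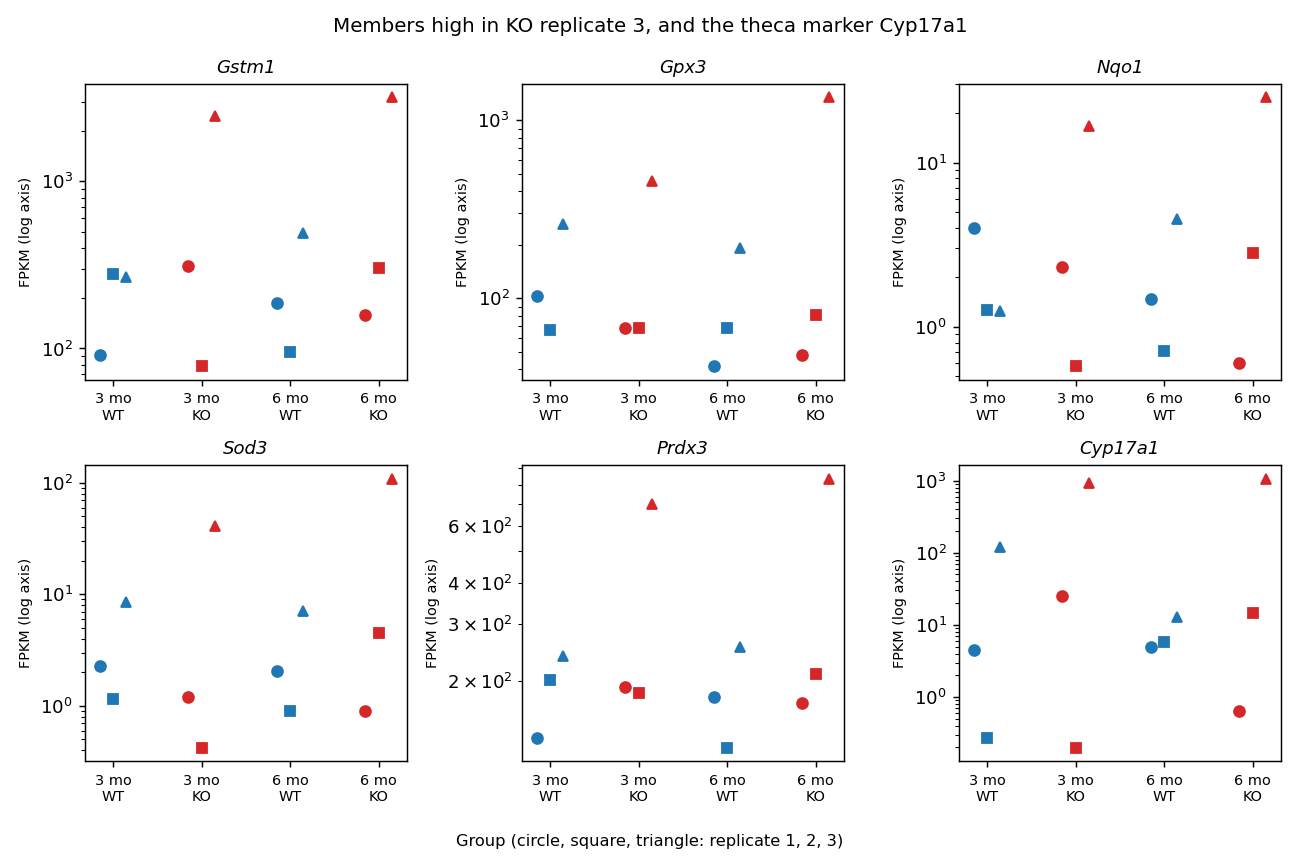
FPKM (vertical axis, log scale) of Gstm1, Gpx3, Nqo1, Sod3 and Prdx3 and of the theca marker Cyp17a1 in each library by group (horizontal axis, WT blue and KO red), with symbols for replicates 1, 2 and 3. In each of the 5 members replicate 3 of both KO groups lies above the other 10 libraries, as it does for Cyp17a1 at 932 and 1062 FPKM.

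Genes beyond the 37 were read from 5 lists of 79 related genes, of which 72 passed the filter. None was called in any comparison by limma. At an unadjusted p under 0.05 there were 3 of 72 for KO against WT at 3 months (6.8% of all tested genes), 2 at 6 months (1.22%), 4 for age in WT (7.44%) and 2 for age in KO (6.48%). The average over both ages had 6 (5.96%) and the interaction 1 (2%). KO minus WT lay above 0 for 50 of 72 at 3 months (median 0.22) and 55 of 72 at 6 months (median 0.29), beside 51.2% and 51.5% of all tested genes. Several transferases on the lists were highest in library 3 of both KO groups, among them, named after their values were seen, Gsta2 (75.3 and 153 FPKM, at most 6.33 elsewhere), Gstm2 (2513 and 2906, at most 928) and Gstt1 (39.2 and 52.2, at most 10.9). Without library 3 of all 4 groups 40 of 72 lay above 0 at 3 months (median 0.11) and 49 at 6 months (median 0.14), and without library 3 of both KO groups and of 6-month WT 34 of 72 did at 3 months (median -0.028). The 8 genes of NADPH supply lay above 0 in KO for 7 at 3 months and 8 at 6 months, with medians of 0.43 and 0.29. Without library 3 of all 4 groups it was 6 and 5 of 8, with medians of 0.29 and 0.059. With age in KO 7 of the 8 lay below 0, with a median of -0.43, or -0.60 without library 3. With age in WT 6 of the 8 did, with a median of -0.15. The 3-month KO libraries serve in both the 3-month genotype comparison and the age comparison in KO.

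Txnrd3, the thioredoxin-glutathione reductase, had the smallest unadjusted p of the 72 at 3 months, where the WT libraries gave 3.88, 0.575, 1.29 FPKM, the KO libraries 11.9, 9.86, 6.18, a difference of 1.95 (SE 0.61, limma adjusted p = 0.664). For Pgd, which makes NADPH in the pentose phosphate pathway, the WT libraries gave 20, 20, 18.6 FPKM, the KO libraries 28.7, 39.1, 24.6, a difference of 0.61 (SE 0.27, limma adjusted p = 0.73). KO and WT did not overlap for either gene. Averaged over both ages Txnrd3 differed by 1.37 (SE 0.43, limma adjusted p = 0.783). Sephs2, which makes the selenium donor for selenoproteins such as GPX1, GPX4 and the thioredoxin reductases, stood at 6.36, 6.49, 7.75 FPKM across 3-month WT, 10.4, 12.6, 12.2 across 3-month KO, 8.95, 6.34, 3.77 across 6-month WT and 11.5, 8.73, 16 across 6-month KO. Every 3-month KO value lay above every 3-month WT value, and the 6-month groups overlapped. The KO minus WT difference was 0.70 at 3 months and 0.86 at 6 months, and averaged over both ages it was 0.78 (SE 0.23, limma adjusted p = 0.783). The selenoprotein members lay on both sides of 0 in that average, 3 above and 2 below.

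At 6 months Gstp2, a near-identical neighbour of Gstp1 whose reads may be shared with it, had the smallest unadjusted p, where the WT libraries gave 1.98, 1.12, 1.86 FPKM, the KO libraries 2.43, 13.9, 19.7, a difference of 1.96 (SE 0.68, limma adjusted p = 1). Its interaction with age was 2.00 (SE 0.95, limma adjusted p = 1), and that of Gstt3, a theta-class transferase, -1.52 (SE 0.69, limma adjusted p = 1). Gstt3 was low throughout, at 0, 0.308, 0.0807 FPKM across 3-month WT and 0, 1.81, 3.96 across 3-month KO. In the 6-month groups it was at most 1.13. With age in KO Gstp2 differed by 2.23 (SE 0.68, limma adjusted p = 0.745), with overlap. Slc3a2, a subunit of the cystine importer, averaged 173 ± 73.7 FPKM in 3-month WT, then 72.4 ± 11.4 in 6-month WT, a difference of -1.17 (SE 0.37, limma adjusted p = 0.664) with no overlap. Nfe2l1, a relative of NRF2, averaged 8.73 ± 0.742, then 16.9 ± 2.71 in WT and 6.97 ± 1.75, then 15.2 ± 3.69 in KO. Its 6-month values lay above the 3-month values without overlap in both genotypes, with differences of 0.87 (SE 0.29, limma adjusted p = 0.664) in WT and 1.02 (SE 0.29, limma adjusted p = 0.745) in KO.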

How the data were processed

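RNA of 12 cumulus cell libraries was sequenced as 75 bp paired reads after Smart-Seq2 and Nextera XT, per the labels' protocols. The authors deposited FPKM values. The submitters' processing notes list, with no order, Cufflinks 1.2.1, TopHat2 2.0.10, SAMtools 0.1.18, Bowtie2 2.1.0, FastQC and cutadapt, and the build GRCm38/mm10. Read counts were not used here, so the counting error behind each value is unknown. In the symbol column 27 names had turned into dates and were assigned to no gene. No 2 libraries were identical among 66 pairs.

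Values were analysed as log2(FPKM + 1), whose pseudocount of 1 understates differences of low genes. The 11196 genes with 1 FPKM or more in 3 or more libraries were tested in R 4.3.3 with limma 3.58.1. The fit had 4 group means, 8 residual and 3.9 prior degrees of freedom, and a trended prior. P-values were 2-sided and adjusted by Benjamini and Hochberg over all tested genes, with a threshold of 0.05. Each library is a separate mouse. Tables and figures used Python 3.11.15, pandas 2.3.3, numpy 2.4.6 and matplotlib 3.10.9. Coordinates are from GENCODE M21 (GRCm38), where all 37 members matched. The fit was tested on simulated data.

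Full statistics are given for the 4 members with the smallest unadjusted p of each of the 6 comparisons, and values in every library also for the 8 with the highest mean FPKM. Of other pathway genes the 2 with the smallest unadjusted p of a comparison are named. Members and lists were chosen with earlier results of these data known. The labels number libraries 1 to 3 in each group without saying what a number shares. Libraries of the same number, taken relative to the mean of their group, had correlations of 0.16, 0.37 and 0.47 in the 6-month genotype comparison and of 0.11, 0.39 and 0.65 for age in KO. Only there were the numbers read as pairs. In both comparisons libraries 1 correlated best with a library 2, and only libraries 3 matched each other best in both directions, so the pairing is uncertain. At least 1 pair was under 0.1 in each of the other comparisons.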

Additional observations from a re-analysis of the deposited data

How the results depend on the processing

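The 6 comparisons were refitted with pseudocounts of 0.1 and 5, no filter on low values, a filter of 5 FPKM, 2 other scalings, no trend, the 6 libraries of a pair of groups alone (not run for the average and the interaction), the replicate block, and each library left out in turn. The replicate block called 0 members in every comparison and changed no call, with Osgin2 at -2.50 and an adjusted p of 0.295 in limma at 3 months. It left the genes called over the whole table at 1 at 3 months and 3 at 6 months, and not every library correlated best with its own number. Members called ranged from 0 to 1 when 1 library was left out for KO against WT at 3 months, the average over ages, the interaction and age in WT. The 1 was Osgin2 without 3-month WT library 3, at an average of -1.64 (limma adjusted p = 0.024) beside the values given above. No member was called for KO against WT at 6 months or for age in KO. With 1 library left out the members' median ranged from -0.39 to -0.047 for age in WT and from -0.20 to 0.26 for age in KO, where it was -0.20 without 6-month KO library 3. Leaving out library 3 of both KO groups and of 6-month WT gave -0.39 for age in WT. Leaving out library 3 of all 4 groups, also chosen after the data were seen, called 1 member, Osgin2, at 3 months and for age in WT (-3.46, adjusted p = 0.0131), and 0 members elsewhere. The members' median changed sign between alternatives for age in KO, at 3 months (-0.31 to 0.073) and in the average (-0.079 to 0.14). None of the members given with full statistics changed direction under these alternatives in the comparisons that selected them. Genes called over the whole table ranged from 0 to 45 at 3 months, 2 to 3 at 6 months, 1 to 6 for the average, 0 to 4 for the interaction, 1 to 39 for age in WT and 2 to 4 for age in KO, where the reported fits called 1, 3, 2, 1, 1 and 2. The 45 and the 39 came without library 3 of all 4 groups. Scaling without small RNA shifted the median of all tested genes from 0.012 to 0.12 at 3 months and from 0.01 to -0.13 for the interaction, and the members' median relative to it was then -0.076 and 0.26. The cause of these shifts was not tested. FPKM hold no counts, so low members such as Nqo1, Osgin1 and Keap1 carry an unknown counting error.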
